A study of Oryza sativa Japonica Group and Oryza sativa Indica Group with 10 samples.

Results

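OsGAMyb and TDR are transcription factor genes of rice anther development, and their expression was compared between 2 cultivars in young panicles 2 cm long. A probe set was taken for one of these genes if the platform annotation paired it with exactly 1 gene and the symbol or a synonym of that gene was OsGAMyb or TDR. This gave 1 probe set for OsGAMyb, a gene of chromosome 1 also named GAMYB, and 1 for TDR, a gene of chromosome 2 also named OsbHLH005. They are 2 of the 17905 genes and 2 of the 22436 probe sets that could be paired in this way, among 57258 rice probe sets on the Affymetrix GeneChip rice array. The samples were 5 biological replicates of 93-11, an *indica* cultivar, and 5 of Nipponbare, a *japonica* cultivar. Total RNA of each was labeled with biotin and hybridized to an array of its own. No treatment, genetic change or plant age is given in the sources used here, and whether a replicate was 1 plant or a pool is not given either.

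The tapetum is the innermost wall layer of the anther, which feeds the developing microspores and then breaks down. GAMYB proteins are MYB transcription factors that act downstream of gibberellin, first described at amylase promoters in the aleurone of cereal seeds, and rice plants without OsGAMyb form defective tapetum and pollen. TDR (TAPETUM DEGENERATION RETARDATION) is a basic helix-loop-helix (bHLH) factor whose loss delays tapetum breakdown, and it acts beside OsGAMyb, UDT1, TIP2 and EAT1 in the network that controls the tapetum.

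The authors deposited 1 signal per probe set and array, an intensity on a linear scale. The overall level differed between arrays. After trimming 2% of the rice probe sets at each end, the mean signal was 196 to 235 on the 93-11 arrays and 205 to 377 on the Nipponbare arrays, so each value is given as deposited and after scaling all arrays to 1 trimmed mean. Floral MADS-box genes were strong in both cultivars, with 19 of 22 probe sets of 16 genes above 2.5 in mean log10 signal. Of all 57258 rice probe sets, 11006 were above 2.5 in both cultivars. The study also used 2.5 for highly expressed genes, but for the median log10 intensity of the perfect match probes in a set. Here the level is applied to deposited probe set signals, so it is not the same measure. Some leaf genes differed. Of 15 probe sets of 7 leaf genes, 10 were lower in 93-11 in the limma test described below, against 11.9% of all rice probe sets as deposited. The summed signal of the list was 1826 to 4395 on the 93-11 arrays and 15054 to 24658 on the Nipponbare arrays. Most of the Nipponbare sum came from CAB2R, whose probe sets averaged 4149 and 8948 there. The stronger probe set of GLO1, at 859 in 93-11 and 973 in Nipponbare, was not called. The arrays numbered 5 stood apart in the 3′/5′ ratio of the dap probe sets, an Affymetrix control that is not a rice gene. This ratio was 16.8 on the 93-11 array and 10.03 on the Nipponbare array. On the other arrays it was 2.24 to 3.23 for 93-11 and 2.31 to 3.55 for Nipponbare.

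OsGAMyb was lower in 93-11 panicles than in Nipponbare panicles on every array. The deposited signal was 170, 162, 201, 151 and 171 in 93-11 replicates 1 to 5, against 408, 548, 584, 418 and 361 in Nipponbare replicates 1 to 5. The highest 93-11 array lay below the lowest Nipponbare array, and the 93-11 arrays lay closer together. The mean was 171 ± 18.6 in 93-11 and 464 ± 96.4 in Nipponbare (SD, n = 5 each), so that the mean of Nipponbare was 2.71 times that of 93-11. After scaling, the signal was 178, 203, 214, 188 and 202 in 93-11 and 368, 356, 528, 391 and 432 in Nipponbare, with means of 197 ± 14.2 in 93-11 and 415 ± 69.5 in Nipponbare (SD, n = 5 each). The cultivars did not overlap on this scale either, and the ratio of the means, Nipponbare over 93-11, was 2.11. How many of all rice probe sets lay apart in this way was not counted, so the lack of overlap alone does not set OsGAMyb apart. In Nipponbare, replicate 2 was the second highest array as deposited and the lowest after scaling, whereas replicate 3 was highest on both scales.

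TDR was weaker than OsGAMyb and more variable. The deposited signal was 43.2, 15.4, 15.6, 13.3 and 2.67 in 93-11 replicates 1 to 5, against 72.0, 73.6, 99.96, 44.0 and 24.1 in Nipponbare replicates 1 to 5. The cultivars overlapped, because 93-11 replicate 1 lay above Nipponbare replicate 5, while the other 4 arrays of 93-11 lay below all Nipponbare arrays. The mean was 18.1 ± 15.05 in 93-11 and 62.7 ± 29.3 in Nipponbare (SD, n = 5 each), a ratio of the means, Nipponbare over 93-11, of 3.48. After scaling, the signal was 45.0, 19.3, 16.7, 16.6 and 3.15 in 93-11, against 64.9, 47.9, 90.5, 41.2 and 28.8 in Nipponbare, and 93-11 replicate 1 then lay above Nipponbare replicates 4 and 5. The scaled mean was 20.2 ± 15.3 in 93-11 and 54.7 ± 23.9 in Nipponbare (SD, n = 5 each). Replicate 5 was the lowest array of its cultivar for TDR in both cultivars and on both scales.

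**Figure D1:**
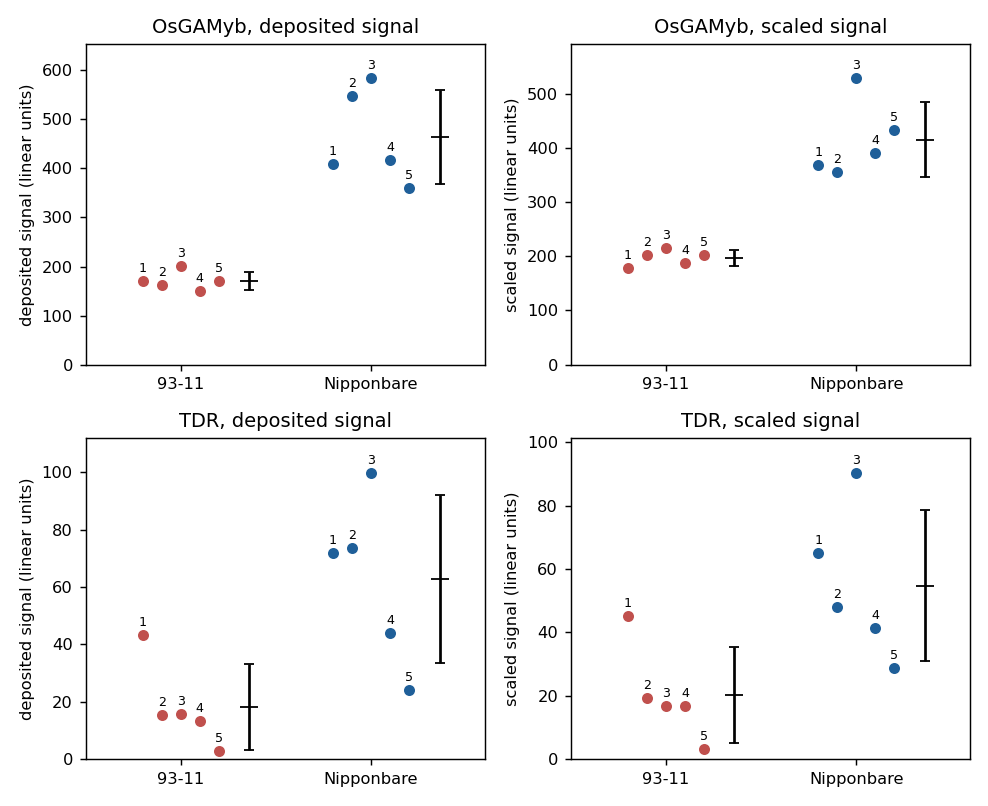
Signal of OsGAMyb (top) and TDR (bottom) on each of the 10 arrays, in linear units, as deposited (left) and after scaling to a common trimmed mean (right). Points are arrays with their replicate number, 93-11 left of Nipponbare, and bars show the mean ± SD (n = 5). The OsGAMyb points of the cultivars do not overlap, and 93-11 replicate 1 overlaps with the Nipponbare points for TDR.

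Both genes passed the test between cultivars, and they differ in how firmly. The limma model was fitted to log2(signal + 16) of every rice probe set, 93-11 minus Nipponbare, with Benjamini-Hochberg adjustment over all 57258 and a threshold of 0.05. Adding 16 shrinks the log2 differences of weak signals, and more so the weaker they are. For OsGAMyb the log2 difference was -1.34 (SE 0.169, 95% confidence interval -1.70 to -0.98, limma adjusted p = 2.59e-05) as deposited and -1.01 (SE 0.115, interval -1.26 to -0.76, adjusted p = 2.32e-05) after scaling. For TDR it was -1.22 (SE 0.330, interval -1.92 to -0.52, limma adjusted p = 0.0204) as deposited and -1.001 (SE 0.305, interval -1.66 to -0.34, adjusted p = 0.0383) after scaling. The standard error of TDR was the larger on both scales, and how the differences of the genes compare in size depends on the added constant, since TDR gave -1.99 and OsGAMyb -1.42 with 1 added, and -0.61 and -1.15 with 64 added.

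Calls of this kind were common on these arrays. As deposited, 11.9% of all rice probe sets were called lower in 93-11 and 1.66% higher, with a median log2 difference of -0.16. After scaling, 9.21% were called lower and 7.84% higher, with a median of 0.03. Both genes were called lower, 2 of 2, on each scale. The deposited log2 difference was further below 0 than that of OsGAMyb in 4.64% of all probe sets, and than that of TDR in 5.22%. After scaling these shares were 4.96% for OsGAMyb and 4.99% for TDR. Among probe sets of the same range of mean log10 signal they were 9.99% as deposited and 10.1% after scaling for OsGAMyb, and 6.08% and 6.31% for TDR. Among the 6276 probe sets of like strength to OsGAMyb, with a mean log10 signal of 2.0 to 2.5, 23.3% were called lower as deposited and 18.6% after scaling. Among the 11592 probe sets of like strength to TDR, with a mean log10 signal of 1.0 to 1.5, these shares were 11.2% and 9.30%.

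The call of OsGAMyb held in each of 35 alternative settings, with log2 differences of -1.42 to -0.87 and adjusted p values of 2.79e-06 to 4.51e-04. The call of TDR was lost in 15 of 34 settings, although the direction stayed the same in all of them. With deposited values the TDR call was lost without Nipponbare replicate 1 (adjusted p = 0.0529), 2 (0.0549) or 3 (0.0575) and without 93-11 replicate 4 (0.0503) or 5 (0.0565), all from limma. With scaled values it held without 93-11 replicate 1 (adjusted p = 0.0110) or Nipponbare replicate 5 (0.0241) and was lost without any of the other 8 arrays. Without both arrays numbered 5, the log2 difference of TDR was -1.25 (limma adjusted p = 0.00861) as deposited and -0.94 (adjusted p = 0.0356) after scaling, and that of OsGAMyb was -1.42 (adjusted p = 2.54e-05) and -0.998 (adjusted p = 2.19e-04).

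**Figure D2:**
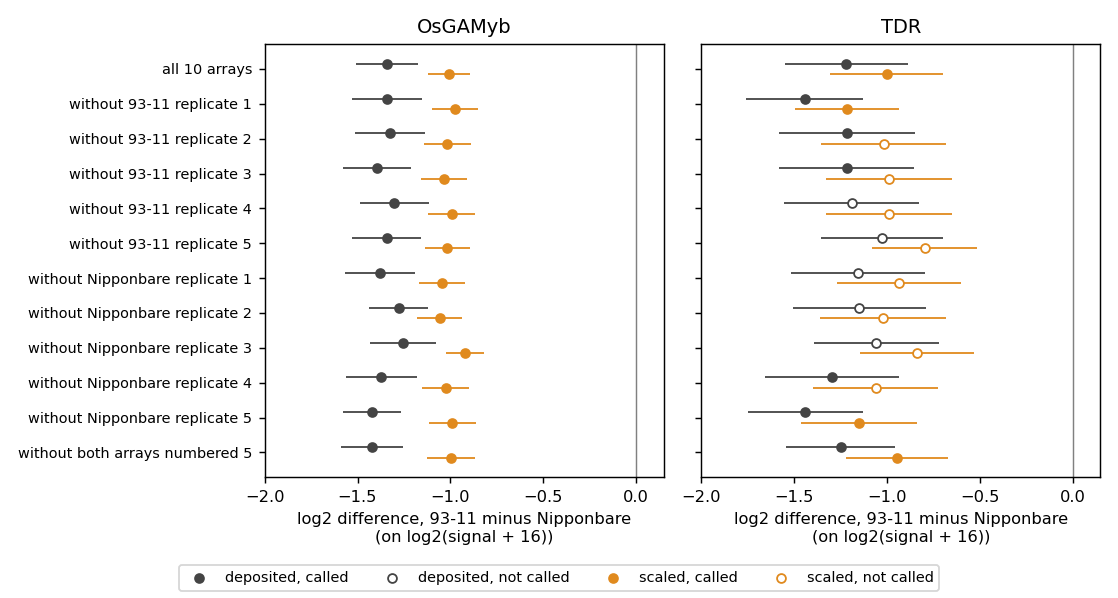
Log2 difference of OsGAMyb and TDR, 93-11 minus Nipponbare on log2(signal + 16), with all arrays, without each array in turn and without both arrays numbered 5. Points are limma estimates with standard error bars, as deposited (grey) and scaled (orange), filled where the adjusted p was under 0.05. All OsGAMyb points are filled, while 5 of the 10 deposited and 8 of the 10 scaled TDR points that leave out 1 array are open.

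The strength of the signal sets how far these values can be read. OsGAMyb exceeded 73.5% to 75.0% of all rice probe sets on the 93-11 arrays and 79.3% to 83.9% on the Nipponbare arrays, and its log10 signal was above 2.5 on 0 of 5 arrays of 93-11 and 5 of 5 of Nipponbare. TDR exceeded 60.7%, 43.4%, 42.9%, 41.0% and 15.9% of the probe sets on 93-11 arrays 1 to 5, so that on 4 of 5 it lay below the median of its array. On Nipponbare arrays 1 to 5 it exceeded 62.3%, 58.9%, 65.4%, 57.0% and 52.1%. No array of either cultivar had a log10 signal of TDR above 2.5, and calls of presence or absence were not used. The fold change of TDR has no fixed size at this signal, since its log2 difference moved with the added constant.

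The scatter between replicates differed too. The SD of log2 signal within cultivars was 0.236 for OsGAMyb, below the median of 0.355 among probe sets of like strength. For TDR it was 1.17, above the median of 0.823 among probe sets of like strength. Most probe sets of the array were designed from *japonica* sequence, so less transcript and poorer pairing of 93-11 transcripts with the probes cannot be told apart as sources of a lower 93-11 signal. Each gene had 1 probe set that met the rule, so no second one was compared. Probe sets not paired with exactly 1 gene were not examined for either gene. The name of the OsGAMyb probe set ends in _x_at, the class of Affymetrix probe sets in which some probes also match other sequences. In RNA of whole panicles, fewer cells that express a gene and less RNA per cell cannot be told apart.

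OsGAMyb gave the stronger signal on all 10 arrays. A ratio within an array does not depend on the level of the array, but signals of different probe sets also depend on their probes, so the ratio is not a ratio of transcripts and serves only to compare arrays. TDR was not shown to be above background on every array, and the ratios of the 93-11 arrays with the weakest TDR signals have no firm size. OsGAMyb over TDR was 3.94, 10.5, 12.9, 11.4 and 64.03 on 93-11 arrays 1 to 5, against 5.67, 7.44, 5.84, 9.49 and 14.99 on Nipponbare arrays 1 to 5. The 93-11 arrays held both the lowest and the highest ratio, and the array numbered 5 was the highest of each cultivar. The mean log2 ratio was 3.71 ± 1.45 in 93-11 and 3.02 ± 0.58 in Nipponbare (SD, n = 5 each). The difference of 0.69 was smaller than the pooled SD of 1.10, and without 93-11 replicate 5 it was 0.12. With 64 added to both signals the difference was -0.54, so its direction is not settled. The arrays with the highest ratio were also those with the highest dap 3′/5′ ratio. The part of RNA quality or sample processing in these values was not tested.

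**Figure D3:**
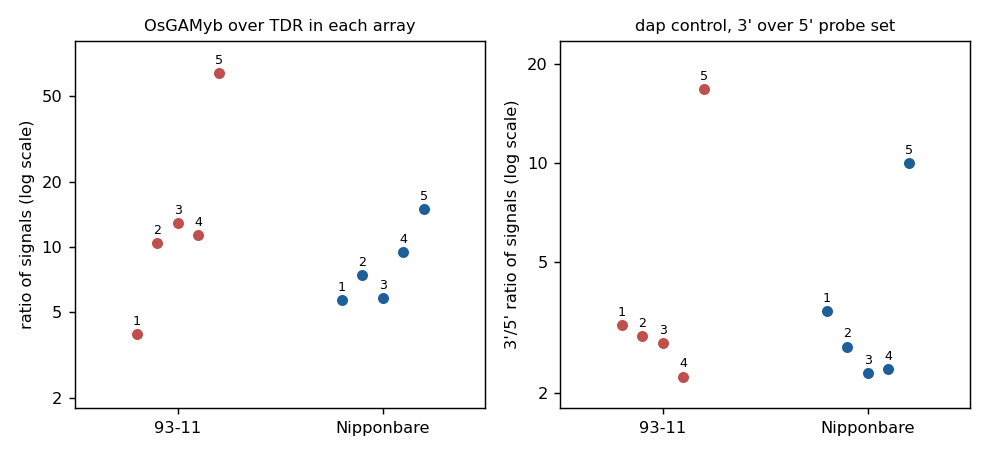
Ratio of the OsGAMyb signal to the TDR signal (left) and 3′/5′ ratio of the dap control probe sets (right) on each of the 10 arrays, both on log axes. Points are arrays with their replicate number, 93-11 left of Nipponbare. The arrays numbered 5 are the highest of their cultivar in both plots, at 64.03 and 16.8 for 93-11 and 14.99 and 10.03 for Nipponbare.

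Of the other anther and tapetum genes, TIP2 and OsMEL1 were the ones called lower in 93-11. The list had 17 probe sets of 17 genes, of which 2 were called lower and 0 higher by limma as deposited and after scaling, with a median log2 difference of -0.23 as deposited and 0.04 after scaling. This count of lower calls was near the share over all rice probe sets, 11.9% as deposited and 9.21% after scaling. TIP2 (OsbHLH142), a bHLH factor that works with TDR upstream of EAT1, had 138, 105, 153, 99.2 and 80.2 in 93-11 replicates 1 to 5, against 400, 505, 776, 439 and 358 in Nipponbare replicates 1 to 5. The cultivars did not overlap for TIP2, and its log2 difference was -1.94 (SE 0.221, limma adjusted p = 8.29e-06) as deposited and -1.62 after scaling. The share of all rice probe sets without overlap was not counted. OsMEL1, an Argonaute gene of germ cells before meiosis, averaged 1401 ± 438 in 93-11 and 4327 ± 1080 in Nipponbare (SD, n = 5 each), a log2 difference of -1.65 (limma adjusted p = 1.43e-04) as deposited and -1.30 after scaling. TIP2 and OsMEL1 kept their calls in every setting tried.

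The list held no probe set of UDT1, and its remaining 15 probe sets were not called. Those of MSP1, a receptor kinase gene that limits the number of cells entering sporogenesis, and of API5, a gene needed for programmed cell death of the tapetum, had the highest mean signals of the list over all 10 arrays, while on the Nipponbare arrays alone OsMEL1 had the highest mean. Signals of different probe sets are not levels of transcript that can be ranked. MSP1 averaged 2969 ± 671 in 93-11 and 3938 ± 731 in Nipponbare (SD, n = 5 each), with a log2 difference of -0.42 (limma adjusted p = 0.184) as deposited and -0.06 after scaling. API5 averaged 3004 ± 295 in 93-11 and 3633 ± 778 in Nipponbare (SD, n = 5 each), with a log2 difference of -0.26 (limma adjusted p = 0.376) as deposited and 0.10 after scaling.

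Some other tapetum genes of the list gave weak signals in both cultivars, and 4 of them are given here. EAT1, a bHLH factor of tapetum cell death, averaged 13.0 in 93-11 and 8.37 in Nipponbare. CYP703A3, a cytochrome P450 of pollen wall synthesis, averaged 31.4 in 93-11 and 38.6 in Nipponbare, and OsC6, a lipid transfer protein gene, averaged 19.6 in 93-11 and 23.1 in Nipponbare. None of these was called. OsCP1, a cysteine protease gene, averaged 16.6 ± 5.40 in 93-11 and 6.82 ± 5.53 in Nipponbare (SD, n = 5 each), with a log2 difference of 0.53 (limma adjusted p = 0.0785). It was called higher in 8 of 36 settings, among them that without Nipponbare replicate 5 (adjusted p = 0.0117), where OsCP1 had 16.7 against 3.70 to 5.12 on the other Nipponbare arrays.

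Gibberellin genes were examined because GAMYB acts downstream of this hormone. As deposited, 2 of 19 probe sets of 15 genes were called lower in 93-11 and 0 higher, and after scaling 2 were lower and 3 higher. Over all rice probe sets 11.9% were called lower and 1.66% higher as deposited, and 9.21% lower and 7.84% higher after scaling. EUI1 (CYP714D1), which inactivates gibberellins, had 47.5, 45.7, 101, 48.5 and 3.80 in 93-11 replicates 1 to 5, against 160, 248, 230, 160 and 146 in Nipponbare replicates 1 to 5. The cultivars did not overlap for EUI1, though the share of all rice probe sets without overlap was not counted. The log2 difference of EUI1 was -1.82 (limma adjusted p = 0.00199) as deposited and -1.55 after scaling. KAO, an oxidase of gibberellin synthesis, averaged 49.3 ± 8.80 in 93-11 and 157 ± 56.9 in Nipponbare (SD, n = 5 each), a log2 difference of -1.36 (limma adjusted p = 6.00e-04) as deposited and -1.06 after scaling.

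Of these scales, only the scaled values gave calls in the other direction, for KS1, RGA1 and 1 probe set of GID1. KS1, a kaurene synthase gene of the synthesis pathway, had a log2 difference of 0.28 (limma adjusted p = 0.469) as deposited and was called higher after scaling, at 0.62 (adjusted p = 0.00323). The receptor gene GID1 had 2 probe sets, of which the stronger averaged 1783 ± 277 in 93-11 and 1754 ± 331 in Nipponbare (SD, n = 5 each) as deposited and was called higher after scaling, at 0.38 (adjusted p = 0.0123), while the weaker was at -0.38 (adjusted p = 0.211). RGA1, the G protein alpha subunit gene, was at -0.06 as deposited and at 0.30 after scaling (limma adjusted p = 0.0264). The median of the list was -0.20 as deposited and 0.08 after scaling. SLR1, the DELLA repressor of gibberellin signaling, averaged 948 ± 180 in 93-11 and 1078 ± 195 in Nipponbare (SD, n = 5 each) and was not called on either scale. The highest mean signal of the list was that of 1 probe set of OsYAB1, a YABBY gene, with 5976 ± 1097 in 93-11 and 8802 ± 1956 in Nipponbare (SD, n = 5 each, log2 difference -0.55, limma adjusted p = 0.0635).

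**Figure D4:**
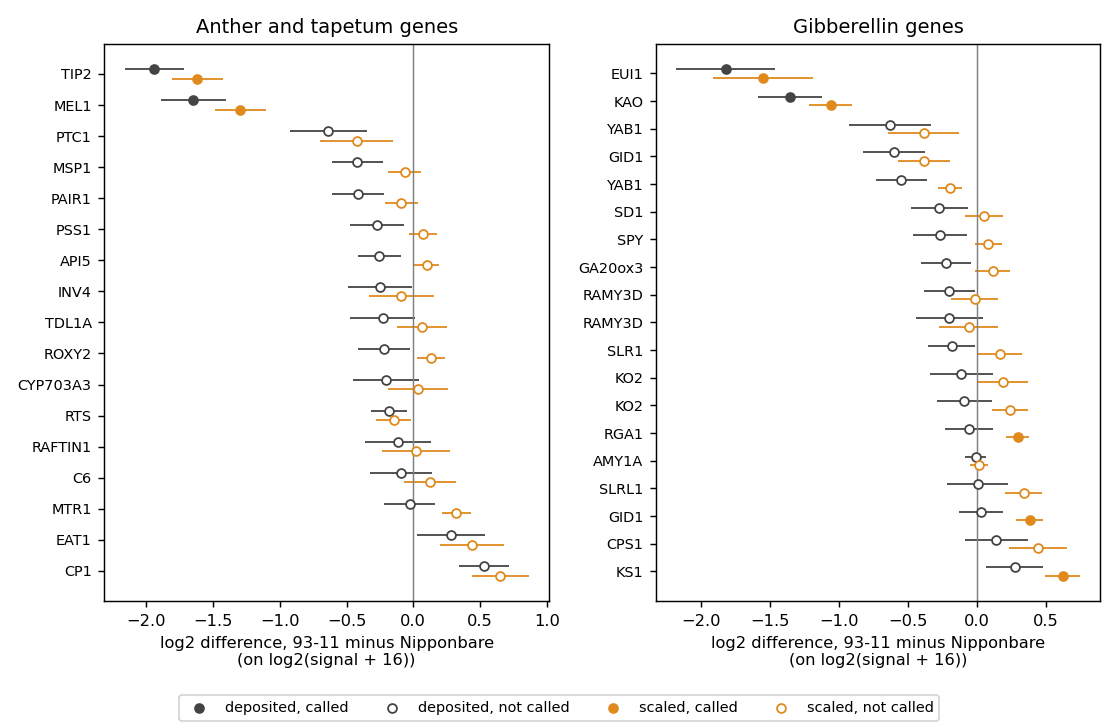
Log2 difference of each probe set of the anther and tapetum list (left) and the gibberellin list (right), 93-11 minus Nipponbare on log2(signal + 16). Points are limma estimates with standard error bars, as deposited (grey) and scaled (orange), filled where the adjusted p was under 0.05. TIP2 at -1.94, OsMEL1 (MEL1) at -1.65, EUI1 at -1.82 and KAO at -1.36 are filled on both scales, and KS1, RGA1 and 1 probe set of GID1 are filled only after scaling.

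Other members of both families that could be matched by name, 11 bHLH genes and 9 MYB genes, were examined in the same way. The families were not surveyed as a whole. Of 14 other bHLH probe sets, TIP2 was the 1 called lower and 0 were called higher as deposited, and after scaling 1 was lower and 3 higher, OsbHLH123 (log2 difference 0.88, limma adjusted p = 0.00846) and OsbHLH003 (0.72, adjusted p = 0.00583) by the most. Over all rice probe sets, 11.9% were lower and 1.66% higher as deposited, and 9.21% lower and 7.84% higher after scaling. Of 13 other MYB probe sets, 1 was called lower on each scale, a probe set of OsMYBS2, a MYB factor of sugar-regulated amylase genes, at -1.35 (limma adjusted p = 8.30e-04) as deposited and -1.03 after scaling. The other 2 probe sets of OsMYBS2 were not called, at -0.63 and 0.27 as deposited, so the probe sets of this gene disagreed. MYBAS2 (myb17) was called higher after scaling, at 0.84 (limma adjusted p = 0.00159), and was at 0.50 (adjusted p = 0.116) as deposited.

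The genes most like each member across arrays were then listed, over 2028 probe sets (genes with a name, mean log10 signal over 2.0), by Pearson r over the 10 arrays on scaled log2 values. For OsGAMyb these were OsTF1 (r = 0.979), PORA (0.976), CYCP4-1 (0.975), OsGLK1 (0.975) and TIP2 (0.974), and all 5 were called lower in 93-11. These calls follow from the choice, since OsGAMyb itself separates the cultivars. Within cultivars, as deviations from the cultivar means, r was 0.733 for OsTF1, 0.702 for PORA, 0.716 for CYCP4-1, 0.649 for OsGLK1 and 0.776 for TIP2. The genes were chosen over the same arrays, so r within cultivars is not independent of the choice. PORA, a protochlorophyllide reductase gene, is also in the leaf list, and OsGLK1 is a factor of chloroplast development. In the leaf list 10 of 15 probe sets were called lower in 93-11 on both scales. Over all rice probe sets, 11.9% were called lower as deposited and 9.21% after scaling. The scaled sum of the list was 2287 to 5179 on the 93-11 arrays and 13920 to 18036 on the Nipponbare arrays. CAB2R made up most of the Nipponbare sum. Of the 15 probe sets, 9 were not above 2.5 in mean log10 signal in either cultivar. The RBCS probe sets of the list, for the small subunit of Rubisco, were not among those called lower, and the strongest of them averaged 189 in 93-11 and 190 in Nipponbare. After scaling, another RBCS probe set was called higher in 93-11, at 0.87 (limma adjusted p = 0.00679). The part of green tissue in the OsGAMyb values was not tested. The 10 points fall into the 2 cultivars, and r over all of them mostly describes the difference between these.

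The genes most like TDR were chosen over the same 10 arrays, where TDR varied widely within cultivars, so their r within cultivars is not independent of the choice. The 5 genes were OsGLU2 (r = 0.938), OsGLK2 (0.937), OsPDIL5-2 (0.929), ARF10 (0.926) and OsARF16 (0.926), and r within cultivars was 0.901, 0.921, 0.885, 0.865 and 0.846 in this order. Of these, 2 were called lower in 93-11 after scaling, OsGLK2 at -1.002 (limma adjusted p = 0.00130) and OsARF16 at -0.76 (adjusted p = 0.00383). Over all rice probe sets 9.21% were called lower after scaling. The choice favors lower calls, since TDR itself was lower in 93-11. OsGLU2, an endoglucanase gene, was at -0.18 (limma adjusted p = 0.200) after scaling, with 841 to 1194 as deposited in 93-11 and 973 to 1783 in Nipponbare. OsGAMyb and TDR had r = 0.70 with each other over the 10 arrays and 0.05 within cultivars. Of the 2028 probe sets, 13.0% had a higher r to OsGAMyb than TDR had, and 7.84% had a higher r to TDR than OsGAMyb had.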

How the data were processed

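RNA of 10 young panicle samples, 5 of 93-11 and 5 of Nipponbare, was measured on the Affymetrix GeneChip rice array. The values the authors deposited are intensities on a linear scale, 1 for each probe set on each array, made with GCOS 1.3 according to the submitters' processing notes. How probes were summarised and scaled is not given in the sources used here, which could move weak signals most. The 123 Affymetrix controls among 57381 probe sets entered no test. The model (limma 3.58.1 under R 4.3.3, lmFit and eBayes with trend, two-sided, without block) took log2(signal + 16) and was first tested on simulated data. Scaled values share 1 trimmed mean (2% trimmed at each end). The replicates are biological per the labels, and the number of arrays limits the precision. Genes were paired through the platform annotation and a RefSeq gene table, from which no coordinates were used. Alternatives covered scaling, the added constant, low signals, the model and left-out arrays.

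Members and lists were chosen with earlier results of these data known. The text names the 5 most alike genes per member, the called genes and the 2 of highest mean of the anther and gibberellin lists, and up to 4 of each family. EAT1, CYP703A3, OsC6, OsCP1 and SLR1 were named after their values were seen. Of the symbol matches, 8 were left out of the lists because their synonyms name another gene. No nucleotide or protein sequences were used. Python 3.11.15, numpy 2.4.6, pandas 2.3.3 and matplotlib 3.10.9 were used.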

Additional observations from a re-analysis of the deposited data

Results flagged for a closer look

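In 18 groups of 5 arrays examined with Dixon's test (critical value 0.71), 3 held an array far from the others, and chance gives about 1 in 20 groups. All 3 concern arrays numbered 5. For the 3′/5′ ratio of the dap control, the gap of 93-11 replicate 5 to the next array was 0.932 of the range of its cultivar and that of Nipponbare replicate 5 was 0.838. For the actin 3′/5′ ratio, the gap of Nipponbare replicate 5, at 2.07 against 1.55 to 1.68 on the other Nipponbare arrays, was 0.742 of the range. The cyclophilin ratio of these arrays, at 3.12 in 93-11 and 3.08 in Nipponbare, lay within the range of the other arrays. The gapdh 3′/5′ ratio was 6.15 on 93-11 replicate 5 and 6.31 on 93-11 replicate 1, the array with the highest TDR signal of 93-11. On Nipponbare replicate 5 the gapdh ratio was 5.72, against 2.82 to 4.41 on the other Nipponbare arrays. The arrays numbered 5 had the lowest TDR signal of their cultivar, and the part of RNA quality or sample processing in this was not tested.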

How the results depend on the processing

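The log2 difference of TDR stayed below 0 in 34 settings. Its call was lost with quantile normalization (-0.90, limma adjusted p = 0.0674) and with an ordinary t-test on the same arrays (-1.22, Benjamini-Hochberg adjusted p = 0.0861). Leaving out 1 array at a time gave -1.44 to -1.03 as deposited and -1.21 to -0.80 after scaling for TDR, and -1.42 to -1.25 and -1.06 to -0.92 for OsGAMyb. TDR has no value in the setting limited to a mean log10 signal above 2.0. The log2 ratio of OsGAMyb to TDR differed by 0.12 to 1.13 without 1 array, and by -0.54 with 64 added to both signals. The number of probe sets called higher in 93-11, 951 as deposited beside 6788 lower, moved most. It was 4490 after scaling (5274 lower), 5772 after quantile normalization and 1470 scaled to hybridization controls. Above a mean log10 signal of 2.0 it was 486, with 3928 lower. That setting tested only the probe sets above this level, so its counts cannot be set beside the others. Without 1 array the higher calls were 782 to 1238 as deposited and 3557 to 4781 after scaling. The lower calls were then 5325 to 9678 as deposited (9678 without Nipponbare replicate 5) and 4718 to 5320 after scaling. Scaled values gave 4892 higher calls without both arrays numbered 5 and, in settings chosen after seeing the data, 4392 with 1 added and 4476 with 64 added. The number of anther and tapetum probe sets called higher was 1 in 10 of 35 settings and 0 in the others, and that of gibberellin probe sets was 0 to 5. Same-numbered replicates of the cultivars did not deviate together in all pairs (r of -0.0515 to 0.50), so the numbers were not taken as pairs. With the replicate number as a block, OsGAMyb was at -1.34 (limma adjusted p = 8.77e-05) and TDR at -1.22 (adjusted p = 0.00447), with 886 probe sets called higher and 6543 lower, and after scaling 5205 higher and 5484 lower. Arrays 4 and 5 of each cultivar, but not 1 to 3, correlated best with the array of the same number. The cause of these changes was not tested.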
